A study of Homo sapiens with 6 samples.

Results

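The genes described here encode the protein subunits of telomerase and 4 of the shelterin proteins that cap telomeres, 10 genes chosen by name. TERT, DKC1, NOP10, NHP2, GAR1 and WRAP53 make up the 6 telomerase genes, and TERF1, TERF2, POT1 and TINF2 the 4 shelterin genes. Each was found in 1 of the 27918 rows of a gene expression table, none was listed at 0 in any library, and all 10 were among the 16028 genes and loci whose mean over the libraries reached 0.1 FPKM (fragments scaled for transcript length in kilobases and for the mapped fragments of the library) and were therefore tested.

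RNA-seq was carried out on poly(A) RNA of HCT-116, an established human colorectal carcinoma cell line. In the GapC9 group, 3 libraries came from cells transfected with an antisense LNA GapmeR (a chemically modified DNA oligonucleotide that directs RNase H to cut its target RNA) against the long noncoding RNA CASC9, and in the GapNC group 3 libraries came from cells given a negative control GapmeR. Both were used at 10 nM with a lipid transfection reagent, and the time between transfection and RNA extraction is given once as 24 h and once as 48 h. The comparison asked which genes differ in expression once CASC9 is targeted, with 1 cell line and 1 GapmeR sequence per group. The labels do not say that the 3 libraries of a group came from separate cultures, so p-values measure only the spread between these libraries.

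Telomerase adds telomeric repeats to chromosome ends. TERT is its catalytic reverse transcriptase, the RNA TERC is its template, and the H/ACA proteins dyskerin (DKC1), NOP10, NHP2 and GAR1 bind the end of TERC and keep it stable, while WRAP53 (TCAB1) carries the particle to Cajal bodies and on to telomeres. Shelterin coats the repeats: TERF1 and TERF2 bind them when double-stranded, POT1 binds the single-stranded overhang, and TINF2 (TIN2) bridges these proteins, whereas ACD (TPP1) joins POT1 to TINF2 and brings telomerase to the chromosome end. TERT is silent in most adult tissues and active in most carcinomas, in which its RNA is usually scarce.

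CASC9 did not check the labels, because its RNA was close to the limit of detection. It was listed at 0, 0.0108 and 0 FPKM with GapNC and at 0.0528, 0.107 and 0 FPKM in the GapC9 libraries, so its level was not lower in the group in which it was targeted (exact two-sided permutation test, p = 0.4, smallest p possible 0.1). The groups are therefore named only by their labels: with GapC9 means in the libraries labelled GapC9, and each direction given rests on those labels. RT-qPCR was also run on CASC9 in this study and is not analysed here. Taking the most frequent increment among low FPKM values as 1 fragment, the depth was 22.8 to 24.4 M fragments per library. Of 6 colon epithelial markers, EPCAM, KRT8, KRT18, KRT19 and CDH1 were at 8.43 to 480 FPKM in every library and LGALS4 did not exceed 0.0528 FPKM, while PTPRC, PECAM1 and ALB, 3 of 4 markers of other cell types, did not exceed 0.0467 FPKM. The fourth, COL1A1, a collagen gene of fibroblasts, was at 1.06 to 1.54 FPKM and did not pass the test (limma adjusted p = 0.965). Over all genes tested, 303 had a higher and 817 a lower level in the libraries labelled GapC9, at an adjusted p under 0.05 (limma on log2(FPKM + 0.1), Benjamini-Hochberg). The lower share of these calls was 72.9%, against 61.4% after scaling to the library medians, 59.8% after quantile normalization and 53.4% after correction for GC content.

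Among the 10 genes, TERT and TINF2 fell in the libraries labelled GapC9, and the other 8 did not pass the test. The ratio of the mean FPKM, GapNC over GapC9, was 3.62 for TERT and 2.84 for TINF2. The 2 lower genes compare with 5.10% of all genes tested called lower at an adjusted p under 0.05, and 0 of the 10 rose, against 1.89% called higher (limma), and the 2 lower genes were also the only ones with an unadjusted p under 0.05, beside 25.9% of all genes tested. The same 2 genes, and no other of the 10, passed a fold rule, which takes a group mean at least 2 times the other with an unadjusted p under 0.05 and by which 4.32% of all genes were lower and 2.10% higher. TERT, TINF2 and NHP2 were the 3 genes whose groups did not overlap, all lower, beside 21.6% of all genes tested. The median log2 fold change of the 10 was -0.05 and that of all genes tested -0.08, so the median of the 10 lay close to that of all genes. In bulk RNA, fewer cells expressing a gene and less of its RNA per cell cannot be told apart.

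**Figure D1:**
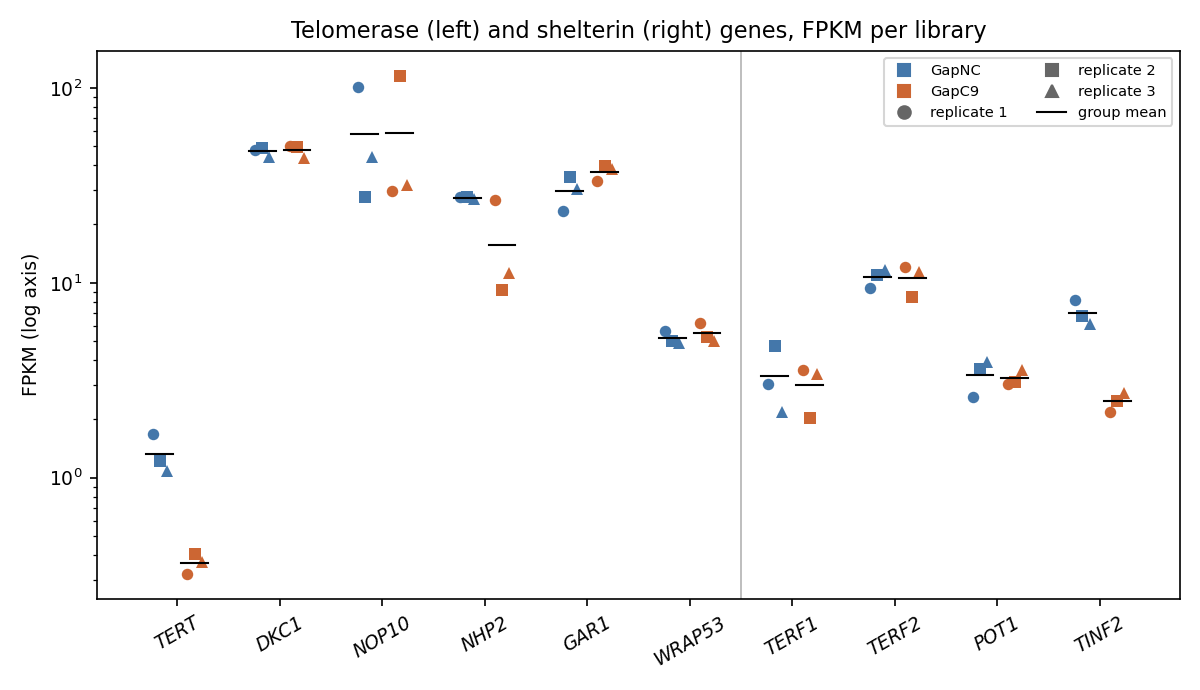
FPKM (log axis) of the 6 telomerase and 4 shelterin genes in each of the 6 libraries, with GapNC in blue, GapC9 in orange, replicate numbers as symbols and the group mean as a black line. TERT and TINF2 are separated between the groups, NHP2 is split within GapC9 (26.7 against 9.18 and 11.2 FPKM) and NOP10 spreads from 27.5 to 115 FPKM.

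RNA levels differed widely between the genes of one particle. In the GapNC libraries, the order of the mean FPKM, which is per length of transcript, was NOP10 (57.7), DKC1 (47.3), GAR1 (29.5), NHP2 (27.3), TERF2 (10.7), TINF2 (6.99), WRAP53 (5.18), POT1 (3.38), TERF1 (3.32) and TERT (1.32). The genes of the H/ACA proteins, which serve every H/ACA RNA and not only TERC, thus stood at the top and that of the catalytic subunit at the bottom. Neighbours whose GapNC libraries overlapped were NOP10 and DKC1, GAR1 and NHP2, and POT1 and TERF1.

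TERT spans positions 1253147 to 1295069 of chromosome 5 on the minus strand (GENCODE release 29, GRCh38, used for all positions of genes). Its level was 1.67, 1.22 and 1.08 FPKM with GapNC and 0.322, 0.407 and 0.370 FPKM with GapC9. Every GapNC library lay above every GapC9 library, and the gap between the groups exceeded the spread inside either of them. The means were 1.32 ± 0.310 and 0.366 ± 0.0424 FPKM (SD, n = 3 each), a log2 fold change of -1.59 (SE 0.20, 95% interval -2.09 to -1.10, limma adjusted p = 0.0189), the 183rd lowest of all genes tested. The depth behind these values is low: on the mean length of the listed transcripts, they correspond to roughly 53.9 to 78.1 fragments per GapNC library and 15.3 to 20.1 per GapC9 library.

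The adjusted p of TERT moved with the libraries used. With 1 library left out, the log2 fold change stayed between -1.72 and -1.42, but the adjusted p was under 0.05 only without GapNC replicate 1 (0.0296). It was 0.0707 and 0.0529 without GapNC replicates 2 and 3, and 0.0688, 0.0805 and 0.0733 without GapC9 replicates 1, 2 and 3. TERT transcripts are GC-rich (66.8% on average, the highest of the 10 genes), and GapNC replicate 1, in which TERT was highest, also showed the strongest relation between GC content and deviation from the gene mean (Spearman's rho across 10117 genes 0.62, against -0.38 to 0.03 in the other libraries). Over the same 10117 genes, the log2 fold change had a Spearman's rho of -0.33 with GC content, so GC-rich genes tended to be lower with GapC9. After correction of each library for GC content, the log2 fold change of TERT was -1.16 (adjusted p = 0.0156). With a pseudocount of 1 instead of 0.1 it was -0.76 (adjusted p = 0.0247).

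None of the genes of the 4 H/ACA proteins passed the test. DKC1, the pseudouridine synthase of the particle (chromosome X, 154762742 to 154777689, plus strand), was at 48.1, 49.4 and 44.4 FPKM with GapNC and at 50.3, 49.6 and 43.7 FPKM with GapC9. The groups overlapped fully, with a log2 fold change of 0.02 (95% interval -0.22 to 0.26, limma adjusted p = 0.934), the narrowest interval of the 10. The row of DKC1 also carries the name of SNORA36A, a small nucleolar RNA encoded in the gene.

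GAR1, which binds dyskerin and joins the particle late (chromosome 4, 109815510 to 109824740, plus strand), was at 23.4, 35.0 and 30.2 FPKM with GapNC and at 33.2, 39.9 and 38.2 FPKM with GapC9. The highest GapNC library lay inside the range of the other group, and the log2 fold change of 0.34 (95% interval -0.07 to 0.76) did not pass the test (limma adjusted p = 0.262).

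NHP2, a core H/ACA protein (chromosome 5, 178149460 to 178153967, minus strand), was at 27.4, 27.6 and 26.8 FPKM with GapNC and at 26.7, 9.18 and 11.2 FPKM with GapC9. The control libraries were almost equal, with the highest 1.03 times the lowest, whereas GapC9 replicate 1 stayed at the control level and replicates 2 and 3 were well below it. The log2 fold change was -0.96 (95% interval -1.91 to 0.00, limma adjusted p = 0.193), and without GapC9 replicate 1 it was -1.42 with an adjusted p of 0.0379. Exons of NHP2 overlap those of RMND5B on the opposite strand, and whether the counting used strand is not given in the sources used here.

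NOP10, the smallest protein of the core (chromosome 15, 34341713 to 34343177, minus strand), varied most. It was at 101, 27.5 and 44.4 FPKM with GapNC and at 29.5, 115 and 31.7 FPKM with GapC9. GapNC replicate 1 and GapC9 replicate 2 stood far above the rest, and within a group the highest library was 3.69 and 3.91 times the lowest. The log2 fold change of -0.06 therefore has a 95% interval of -1.75 to 1.63 (limma adjusted p = 0.967), too wide to exclude a change as large as that of TERT in either direction.

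WRAP53, the Cajal body factor of telomerase (chromosome 17, 7686071 to 7703502, plus strand), was at 5.64, 5.0 and 4.91 FPKM with GapNC and at 6.24, 5.29 and 5.0 FPKM with GapC9. The groups overlapped, with a log2 fold change of 0.08 (95% interval -0.23 to 0.40, limma adjusted p = 0.723). Its exons overlap an annotated gene on the opposite strand, so that without the strand of the reads its values are uncertain.

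**Figure D2:**
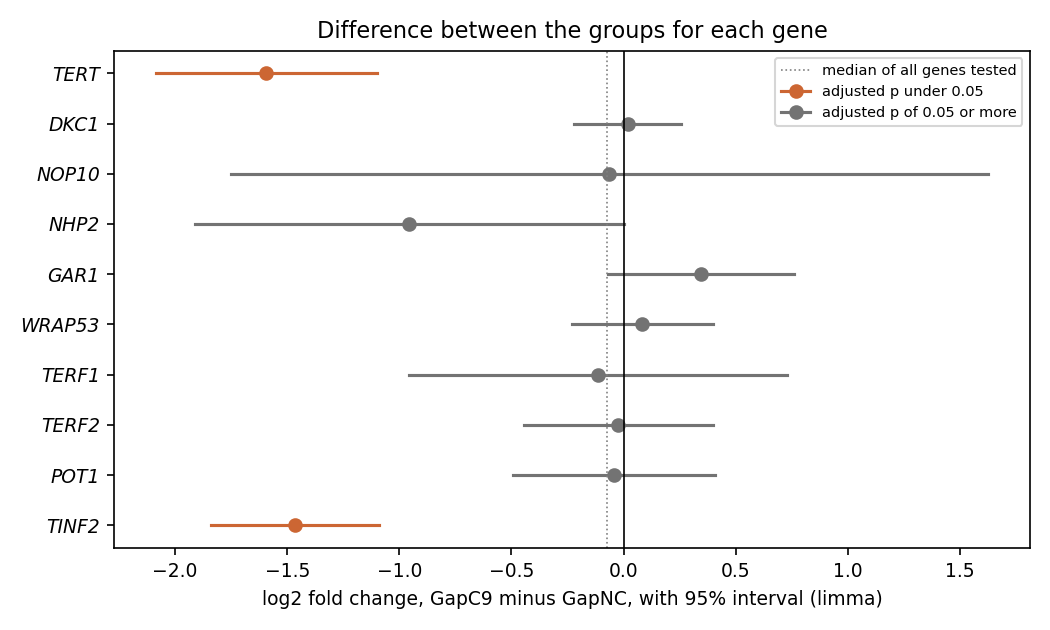
Log2 fold change of each gene, GapC9 minus GapNC, from the limma fit on log2(FPKM + 0.1), with its 95% interval as a bar and the median of all genes tested as a dotted line. The intervals of TERT (-2.09 to -1.10) and TINF2 (-1.84 to -1.09) lie below 0, and those of the other 8 genes include 0.

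In shelterin, TINF2 was the only 1 of the 4 genes that passed the test. TINF2 (chromosome 14, 24239643 to 24242674, minus strand) was at 8.12, 6.73 and 6.13 FPKM with GapNC and at 2.18, 2.48 and 2.73 FPKM with GapC9. The lowest GapNC library was thus more than double the highest GapC9 library. The means were 6.99 ± 1.02 and 2.46 ± 0.275 FPKM (SD, n = 3 each), with a log2 fold change of -1.46 (SE 0.15, 95% interval -1.84 to -1.09, limma adjusted p = 0.0159). It ranked 46th by adjusted p among all genes tested and rested on about 53.9 to 198 fragments per library.

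As for TERT, the size of the TINF2 difference held and the call did not in every fit. With 1 library left out, the log2 fold change stayed between -1.55 and -1.35. The adjusted p was 0.0255 and 0.0497 without GapNC replicates 1 and 3, but 0.0625 without GapNC replicate 2 and 0.0567, 0.0718 and 0.0647 without GapC9 replicates 1, 2 and 3. After correction for GC content (53.4% in its transcripts) the log2 fold change was -1.31 with an adjusted p of 0.00559.

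TERF1 (TRF1; chromosome 8, 73008864 to 73048122, plus strand) was at 3.03, 4.74 and 2.17 FPKM with GapNC and at 3.58, 2.02 and 3.39 FPKM with GapC9. The groups overlapped, with a log2 fold change of -0.11 (95% interval -0.96 to 0.73, limma adjusted p = 0.867). TERF2 (TRF2; chromosome 16, 69355561 to 69408571, minus strand) shares its row with 5 other names, among them COG8, PDF and TMED6, so its values are those of a joined locus of 27 transcripts. The joined row was at 9.42, 11.0 and 11.7 FPKM with GapNC and at 12.1, 8.41 and 11.3 FPKM with GapC9. These groups overlapped too (log2 fold change -0.02, 95% interval -0.44 to 0.40, limma adjusted p = 0.951), and a change of TERF2 alone could not be read from them.

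POT1 (chromosome 7, 124822386 to 124929983, minus strand) was at 2.59, 3.60 and 3.94 FPKM with GapNC and at 3.04, 3.08 and 3.58 FPKM with GapC9. The GapC9 libraries lay inside the GapNC range, with a log2 fold change of -0.04 (95% interval -0.49 to 0.41, limma adjusted p = 0.912). Exons of POT1 overlap the antisense gene POT1-AS1.

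The promoters of TINF2, which fell, and of POT1, which did not pass the test, are shown for comparison as the 250 bases before the RefSeq start (GRCh38.p14, minus strand, 5′ to 3′), at chr14:24242675-24242924 and chr7:124929826-124930075. Capitals mark the letters of a GC box, GGGCGG or its complement on the other strand, the core bound by factors such as SP1 and SP3.
TINF2: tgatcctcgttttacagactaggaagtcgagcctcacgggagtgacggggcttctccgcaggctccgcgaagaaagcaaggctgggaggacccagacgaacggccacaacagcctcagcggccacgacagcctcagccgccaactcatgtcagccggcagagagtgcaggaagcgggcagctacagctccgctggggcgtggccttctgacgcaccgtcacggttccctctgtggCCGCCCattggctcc
POT1: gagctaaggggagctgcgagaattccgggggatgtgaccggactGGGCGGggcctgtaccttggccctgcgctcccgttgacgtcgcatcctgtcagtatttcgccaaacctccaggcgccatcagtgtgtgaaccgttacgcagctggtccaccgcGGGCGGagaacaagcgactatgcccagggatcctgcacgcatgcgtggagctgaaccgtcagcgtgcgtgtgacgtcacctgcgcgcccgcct
In the window of 300 bases that ends 50 bases after the start, TINF2 and POT1 each held 2 GC boxes, of which 1 of TINF2 lies beyond the stretch shown, and TERT held 3. At least 1 GC box was found in 45.0% of the 35116 promoters of the same length, and 26.7% held 2 or more, so the presence of a GC box did not separate TERT and TINF2 from POT1. The E-box CACGTG, read by MYC with MAX and by MXD1 with MAX, was found in 7.26% of promoters. It occurred once in TERT and in neither TINF2 nor POT1. Of the genes that did not pass the test, NOP10 held 2 and GAR1, at its downstream start, held 1. The core CCGGAAG of ETS factors such as GABPA, searched on both strands, was found in 10.3% of promoters. It occurred once in TINF2, beyond the stretch shown, and in neither TERT nor POT1. NOP10 and GAR1, at its upstream start, also held 1 each, so neither motif was particular to TERT or TINF2. RefSeq lists 2 starts for TINF2, and the upstream one is shown. In the window of the other, which is 65.3% GC, the same 3 matches all lie before the start. The windows were GC-rich, at 77.3% in TERT, 64.0% in TINF2 and 60.3% in POT1. A match of letters is a description and not a binding site.

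Because a ratio of a pair of genes within a library does not depend on how the library was scaled, apart from the pseudocount, TERT was also expressed relative to its 5 partners and TINF2 relative to its 3. TERT amounted to 29.7%, 24.5% and 21.9% of WRAP53 in the GapNC libraries and to 5.16%, 7.70% and 7.39% in those labelled GapC9. Relative to DKC1 it was at 3.48%, 2.48% and 2.43% and then at 0.640%, 0.820% and 0.846%. TINF2 was at 313%, 187% and 156% of POT1 in the GapNC libraries and at 71.7%, 80.6% and 76.1% in those labelled GapC9, so TINF2 was above POT1 with GapNC and below it with GapC9. In 7 of the 8 ratios the groups did not overlap, with log2 differences of -1.94 (TERT to GAR1) to -1.35 (TINF2 to TERF1), each at p = 0.1, the smallest p that an exact two-sided permutation test of 3 against 3 can give (0.114 adjusted over the 8 ratios). The exception was TERT to NHP2, with a difference of -0.64 (exact permutation test, p = 0.4). There GapC9 replicate 2, low in NHP2, lay inside the GapNC range and replicate 3 just below it. All 8 ratios hold TERT or TINF2, whose own groups did not overlap, so they are not separate results. The share of such ratios over all genes was not computed. Because the row of TERF2 joins several gene names, TINF2 to TERF2 is not a ratio to TERF2 alone. A relation to GC content does not cancel between genes that differ in it, such as TERT (66.8%) and GAR1 (46.5%).

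The remaining core parts of both complexes were examined next. ACD (TPP1), the direct partner of TINF2 and POT1, fell from 8.18 ± 1.29 to 4.28 ± 0.678 FPKM (log2 fold change -0.92, limma adjusted p = 0.0383). TERF2IP (RAP1), which binds TERF2, was at 10.4 ± 3.20 and 12.1 ± 0.418 FPKM (adjusted p = 0.491), and the tankyrases TNKS and TNKS2, which release TERF1 from telomeres, did not pass the test either (log2 fold changes 0.13 and 0.55). TERC was at 0.106 ± 0.0856 and 0.104 ± 0.0450 FPKM, but it has no stable poly(A) tail and poly(A) RNA was sequenced, so its amount in the cells was not measured.

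Of the 17 genes of H/ACA RNP and telomerase assembly, present as 18 rows, 2 fell, 1 rose and 15 rows did not pass the test. RUVBL1 (pontin), an ATPase that takes part in assembly of the particle, fell from 22.8 ± 1.76 to 15.1 ± 0.698 FPKM (limma adjusted p = 0.0314), and TOE1, a deadenylase that trims the end of TERC, fell from 9.59 ± 0.885 to 5.82 ± 0.351 FPKM (adjusted p = 0.0303). NOLC1 (NOPP140), a chaperone of H/ACA particles, rose from 125 ± 6.18 to 169 ± 11.4 FPKM (adjusted p = 0.0439). The chaperones HSP90AA1 and HSP90AB1, the assembly factors NAF1 and SHQ1 and the deadenylase PARN did not pass the test.

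Of the human homologues of the yeast telomerase protein Est1, 2 were examined and both fell. SMG6 (EST1A) went from 3.72 ± 0.477 to 1.65 ± 0.458 FPKM, with a log2 fold change of -1.15 (limma adjusted p = 0.0372). SMG5 (EST1B) followed with a log2 fold change of -0.96 (adjusted p = 0.0379). Both proteins are best known for nonsense-mediated mRNA decay.

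In the CST complex with polymerase alpha-primase, which fills in the complementary telomere strand, 2 of 7 genes fell. POLA1, the catalytic subunit of the polymerase, fell from 7.26 ± 0.471 to 3.59 ± 0.487 FPKM (a 2.03-fold difference of the means, limma adjusted p = 0.0210), and CTC1, the largest CST subunit, by 0.52 on the log2 scale (adjusted p = 0.0489). STN1, TEN1, POLA2, PRIM1 and PRIM2 did not pass the test, with log2 fold changes of -0.24 to 0.22. In all, 10 rows of the telomere lists carry joined names, among them those of TEN1 (with CDK3) and PRIM1 (with NACA). Of 20 genes of telomere replication, end processing and damage signalling, the helicase WRN (-0.79, adjusted p = 0.0211) and the nuclease subunit MUS81 (-0.77, adjusted p = 0.0495) fell and 18 did not pass, among them ATM, ATR, the MRE11 complex and XRCC5.

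Of 18 factors reported to act on the TERT promoter, 17 were tested, of which 2 rose and 1 fell. GABPA, an ETS factor, rose from 6.51 ± 1.3 to 13.4 ± 1.33 FPKM (log2 fold change 1.04, limma adjusted p = 0.0314). The row of MXD1, which competes with MYC for MAX, rose from 2.73 ± 0.546 to 5.44 ± 0.137 FPKM (adjusted p = 0.0310), but this row also carries SNRNP27. SP3 fell by 0.71 on the log2 scale (adjusted p = 0.0433), whereas MYC was at 52.0 ± 6.70 and 45.4 ± 4.42 FPKM (adjusted p = 0.403) and SP1 at 7.79 ± 4.25 and 4.31 ± 0.237 FPKM (adjusted p = 0.258).

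Over the 68 rows of these lists, 10 fell and 3 rose at an adjusted p under 0.05, beside 5.10% and 1.89% of all genes tested, and 55 did not pass. Their median log2 fold change was -0.04 against -0.08 over all genes, and by the fold rule only SMG6 and POLA1 were lower and GABPA higher. These counts depended on single libraries. Without GapNC replicate 1, 4 genes were lower (TOE1, POLA1, WRN and XRCC5) and 2 higher (GABPA and TERF2IP). XRCC5 and TERF2IP were not called with all 6 libraries. With any other library left out both counts were 0, so the remaining genes called passed in none of these fits. Of the genes called, ACD, RUVBL1, TOE1, SMG6, WRN, MUS81 and GABPA have exons that overlap those of annotated genes on the opposite strand, so their values are uncertain where strand was not used. No change in the lists was as large as that of TERT or TINF2.

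**Figure D3:**
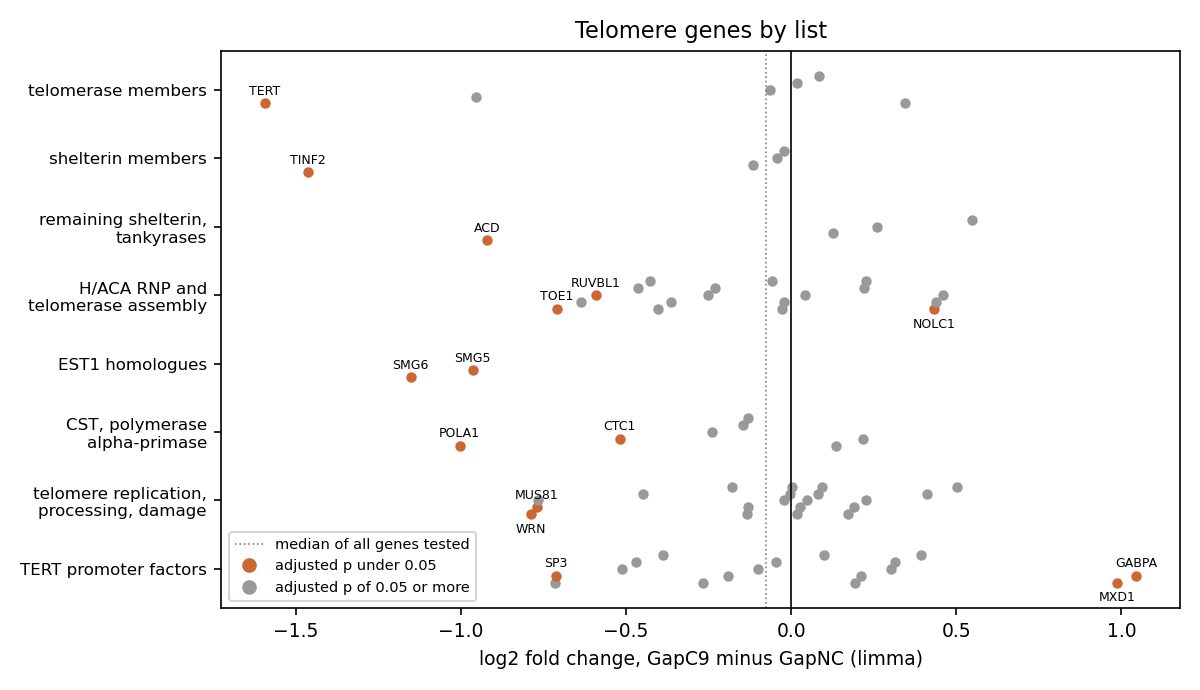
Log2 fold change, GapC9 minus GapNC (limma), of the 10 genes and of the genes tested in 6 telomere lists, 1 point per gene, with genes past an adjusted p of 0.05 in orange and named, and the median of all genes tested as a dotted line. TERT (-1.59) and TINF2 (-1.46) lie farthest to the left, both EST1 homologues lie below 0, and GABPA (1.04) lies farthest to the right.

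The genes most like TERT and TINF2 across the 6 libraries were sought by Pearson's r of log2(FPKM + 0.1), as a description with no test, since the libraries fall into the 2 groups and share their depth and scaling. TERT and TINF2 were close to each other (r = 0.994). Genes compared had a mean of at least 1 FPKM, a single name and no library listed at 0, which left 9095 for TERT and 9094 for TINF2. Those most like TERT were AL669831.1 (r = 0.998), TCAF1P1, HTT, FAM239A and TRAPPC12. Those most like TINF2 were CDC42BPB (r = 0.998), HTT, USP43, DMAC1 and APOBEC3F. The pattern was a common one, with 477 genes over r = 0.95 with TERT and 453 with TINF2. The other members were not near it: NHP2 had an r of 0.63 with both genes, and GAR1 ran the other way, with -0.74 with TERT and -0.71 with TINF2.

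The GapmeR sequences were compared with the annotated spliced transcripts of 17145 genes, introns left out, to see how near any member came to a target site. The CASC9 GapmeR, of 16 bases, matched CASC9 with 0 mismatches. Its nearest site in TINF2 and in TERF1 had 4 mismatches, as few as in 20.7% of genes, and its nearest site in TERT had 5, as few as in 63.9%. The control GapmeR also came to 4 mismatches in TINF2 and TERF1, and to 6 in TERT.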

How the data were processed

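Poly(A) RNA-seq of 6 HCT-116 libraries (3 GapNC, 3 GapC9) was analysed. The authors aligned the reads to a UCSC human genome with HISAT and computed FPKM with StringTie, and these FPKM values were deposited in 1 table of 27918 rows, of which 1063 join several gene names. The submitters' processing notes list Bowtie 0.12.2, HISAT2 2.0 and StringTie 1.3.0, and a mouse build, mm8. The strand setting is not given in the sources used here. FPKM are relative to all mapped fragments, and without counts the counting error of single values is unknown.

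Groups came from the labels. Values of genes whose mean reached 0.1 FPKM were fitted, unscaled, as log2(FPKM + 0.1) in limma 3.58.1 (R 4.3.3; lmFit and eBayes with trend, all 6 libraries), with Benjamini-Hochberg adjustment over the 16028 genes tested, so fold changes of low genes are understated. SD are over the 3 FPKM values of a group. Fragments were estimated from the step between low values. Within-library ratios and CASC9 were tested with exact two-sided permutation tests (scipy 1.17.1). Coordinates, exons, transcript length and GC content came from GENCODE release 29 (GRCh38) through the Ensembl transcripts in the table, for 99.3% of the genes tested, and promoters from RefSeq (8 of 10 members matched). Columns left unused numbered 0. The fit was tested on simulated data. Alternatives were other pseudocounts, filters and scalings, robust variances in limma or no trend, a block for the replicate number, GC correction (lowess, span 0.3) and leaving out each library. All 10 members were named, and list genes where they passed either rule, with TERC, TERF2IP and ACD always; others are named as examples that did not pass. Members and lists were chosen with earlier results of these data known. No genes of the lists were tested as a set. Some genes of the lists are not reported here.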

Additional observations from a re-analysis of the deposited data

How the results depend on the processing

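Of the 10 genes, TERT and TINF2 were lower in every alternative that tested them, and both passed the fold rule in each of these. At an adjusted p under 0.05, 1 of the 10 was lower when the mean had to reach 1 FPKM (TERT was then not tested, which also left 1 by the fold rule), and 0 to 2 with 1 library left out. Same-numbered libraries correlated by 0.0970, 0.0398 and 0.0243 in their deviations from the group means, and differently numbered ones by -0.0930 to 0.0578. Spearman's rho with GC content was highest by sign in replicate 1 of both groups, at 0.62 in GapNC and 0.03 in GapC9. In GapC9 this was the weakest relation, with -0.34 and -0.38 in replicates 2 and 3. The labels do not say whether same-numbered libraries were handled together. With the replicate block, 0 members and 0 genes in all were called in either direction at an adjusted p under 0.05, although 4570 had an unadjusted p under 0.05, and TERT and TINF2 had adjusted p of 0.0618 and 0.0608. With GC correction and the block together, 0 members and 1 gene in all, a lower one, were called.

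Over all genes, the adjusted counts were 146 higher and 346 lower with no filter, 1087 and 1244 with GC correction, 516 lower with quantile normalization, and 16 to 241 higher and 17 to 573 lower with 1 library left out. By the fold rule they were 116 and 380 for genes whose mean reached 1 FPKM, 555 higher with no filter, 436 lower with GC correction and 416 with the block added. The lower share of fold calls was 67.3%, against 55.0% with median scaling, 52.0% with quantile normalization and 47.5% with GC correction. In the telomere lists, 0 were higher and 4 lower with no filter, 5 lower without trend, 7 higher with GC correction, 0 in both directions with the block, with or without GC correction, and 0 to 2 higher and 0 to 4 lower with 1 library left out. By the fold rule, 2 list genes were higher and 1 lower on the TPM scale, with median scaling and with quantile normalization, 0 and 1 with GC correction, with or without the block, and 1 to 2 higher and 2 to 3 lower with 1 library left out.

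The sign of the log2 fold change changed for 6 members that did not pass the test. For TERF2 it was 0.00629 on the TPM scale, 0.0653 with median scaling, 0.0409 with quantile normalization and 0.0844 with GC correction, with or without the block. POT1 came to 0.0440 and 0.0822 with median scaling and quantile normalization, NOP10 to 0.0255 with median scaling and TERF1 to 0.0180 with quantile normalization. With 1 library left out the ranges were -0.0276 to 0.0817 for DKC1, -0.70 to 0.45 for NOP10, -0.00828 to 0.15 for WRAP53, -0.37 to 0.17 for TERF1, -0.13 to 0.13 for TERF2 and -0.22 to 0.0763 for POT1. With a pseudocount of 1, the log2 ratio of TERT to NHP2 differed by 0.15 and that of TERT to NOP10 by -0.70 (exact p = 0.4), and the pseudocount reduced the log2 fold change of TERT to -0.76. The causes were not tested. In the GapC9 libraries TERT had the fewest estimated fragments of all members, 15.3 to 20.1 per library.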
